A study of Homo sapiens with 6 samples.

Results

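The 7 genes GLI1, GLI2, GLI3, PTCH1, SMO, SUFU and HHIP form the core of the Hedgehog signalling pathway from receptor to transcription factor. They were chosen by name, and their probes were found through the transcript accession that the array files give for each probe, matched to RefSeq. This gave 13 of the 50599 probes, for 7 of the 20503 genes that could be named. The array files do not say where in a transcript a probe lies.

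The cells were A673, an Ewing sarcoma line driven by the EWS/FLI1 fusion, in a derivative (A673/TR) that also expresses the tetracycline repressor. A673/TR/empty cells, the control, carried the inducible lentiviral vector without insert, and A673/TR/LOX-PP cells carried it with the cDNA of the propeptide of lysyl oxidase. The labels give doxycycline (1 µM, 72 h) for all 6 samples, 3 per group, although the study's text uses µg/ml elsewhere. In its other assays the study grew A673/TR/empty cells both with and without doxycycline. For the arrays its text can be read as treatment of both groups or of A673/TR/LOX-PP cells only. Whether the control cultures on the arrays were treated is thus not settled by the text. Per the study's methods, stable clones were taken after zeocin selection, and those with the strongest induction were used further. Which clone or population went onto the arrays is not given in the sources used here, so the construct and the selected cells cannot be told apart. The question for the Hedgehog genes was whether their RNA differed between A673/TR/LOX-PP and A673/TR/empty cells.

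In the canonical pathway a secreted Hedgehog ligand binds the receptor PTCH1, which then no longer holds back the membrane protein SMO. The signal passes through the primary cilium, SUFU releases the GLI proteins, and these enter the nucleus, where GLI1 acts as an activator, GLI2 mainly as an activator and GLI3 mainly as a repressor. GLI1, PTCH1 and HHIP are themselves transcribed in response to GLI proteins in many tissues, and HHIP is a decoy that binds the ligand. In Ewing sarcoma GLI1 is known as a gene that EWS/FLI1 activates without the ligand.

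RefSeq promoter windows of 300 bases (250 before and 50 after an annotated start, build GRCh38.p14) were at hand for 5 of the 7 genes and 10 starts in all. The windows of GLI2 are shown because GLI2 is the member whose signal changed, and that of PTCH1 because it was the only 1 of the 10 with a match to ACCACCC, a core of the GLI binding site. Capitals mark GGAA or TTCC, the core read by ETS factors such as FLI1, in the GLI2 windows, and the reverse complement of ACCACCC in the PTCH1 window. Each is written along the strand of its gene.

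GLI2 start 1, chr2:120735618-120735917, plus strand: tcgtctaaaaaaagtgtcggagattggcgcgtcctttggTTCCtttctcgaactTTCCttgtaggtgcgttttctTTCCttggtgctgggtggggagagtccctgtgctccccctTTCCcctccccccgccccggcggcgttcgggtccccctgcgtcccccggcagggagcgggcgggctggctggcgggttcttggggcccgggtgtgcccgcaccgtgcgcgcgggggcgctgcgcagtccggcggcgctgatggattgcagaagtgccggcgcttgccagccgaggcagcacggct

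GLI2 start 2, chr2:120792031-120792330, plus strand: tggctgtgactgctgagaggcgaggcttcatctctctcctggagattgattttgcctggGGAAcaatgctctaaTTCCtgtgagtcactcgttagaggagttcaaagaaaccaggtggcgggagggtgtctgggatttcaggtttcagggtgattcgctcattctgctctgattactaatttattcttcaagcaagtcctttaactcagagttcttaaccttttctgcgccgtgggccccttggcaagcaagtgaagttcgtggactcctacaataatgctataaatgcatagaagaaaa

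PTCH1, chr9:95509217-95509516, minus strand: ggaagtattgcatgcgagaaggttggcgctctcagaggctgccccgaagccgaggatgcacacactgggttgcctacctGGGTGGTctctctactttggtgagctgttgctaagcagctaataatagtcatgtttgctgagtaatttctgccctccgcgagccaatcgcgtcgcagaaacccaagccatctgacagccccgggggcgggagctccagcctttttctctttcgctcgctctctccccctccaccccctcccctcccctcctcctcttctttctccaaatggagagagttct

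The starts of GLI2 lie 56.4 kb apart, and the windows differ in base composition, with 68.3% G and C in the first and 46.3% in the second. The first holds 4 matches to GGAA counted on either strand and the second holds 2. Over 35116 windows of the same length, 95.5% held GGAA on either strand, with a median of 3 matches, and 4.77% held ACCACCC. The match of PTCH1 begins 171 bases before its start, on the opposite strand. These are matches of letters only, and no binding was measured.

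Each array had 58717 gene spots, none saturated, and 56.9 to 74.8% of them were well above background. Signals are given as log2 over the 75th percentile of the array, so that 0 stands for that percentile, and levels are compared only within a probe. Negative control spots gave their highest net signal on control replicate 3 (408) and LOX-PP replicate 2 (575), against 64.4 to 195 on the others. The scanner software put 1 of 10 quality values outside its range on LOX-PP replicate 1 and 5 or 6 on the other 5 arrays. LOX-PP replicate 1 was alone on its slide. Before scaling, the 75th percentile in log2 was 12.6 to 12.9 on the control arrays and 11.5, 12.6 and 11.7 on LOX-PP replicates 1 to 3. The part of this difference in the results was not tested. The median difference of all tested probes, LOX-PP minus control, was 0.13, and -0.03 after quantile normalization. Each change below is the difference of the group means minus this median, whereas the test is of the difference itself. LOX, whose only probe was the check of the labels, had levels of -0.09, 0.36 and 0.11 in control replicates 1 to 3 and -0.12, -0.68 and -1.29 in LOX-PP replicates 1 to 3. It was thus not higher in the cells meant to express LOX-PP (change -0.95, limma, adjusted p = 0.217). Where this probe lies relative to the propeptide is not given. In experiments other than the arrays, the study reported LOX-PP RNA by RT-PCR and secreted LOX-PP protein in A673/TR/LOX-PP cells given doxycycline.

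Of the 7 genes, GLI2 was the one with a called change, a decrease on 2 of its 4 probes. All 13 probes were well above background on at least 3 arrays and were tested, 10 of them being so on all 6. At an adjusted p under 0.05 (limma, Benjamini-Hochberg over 32647 probes) 2 of the 13 (15.4%) passed, both lower in A673/TR/LOX-PP cells, where 5.66% of all tested probes passed in either direction, 2.36% as lower and 3.31% as higher. At an unadjusted p under 0.05 there were 5 of 13, against 21.3% of all probes. The groups did not overlap on 4 of the 13 probes, 2 lower and 2 higher, against 29.5% of all probes (13.4% lower and 16.1% higher). By gene, on the brightest probe of each, 1 of 7 passed, where 7.07% of 16601 genes did, and the median change was -0.43 against -0.09 over all genes.

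**Figure D1:**
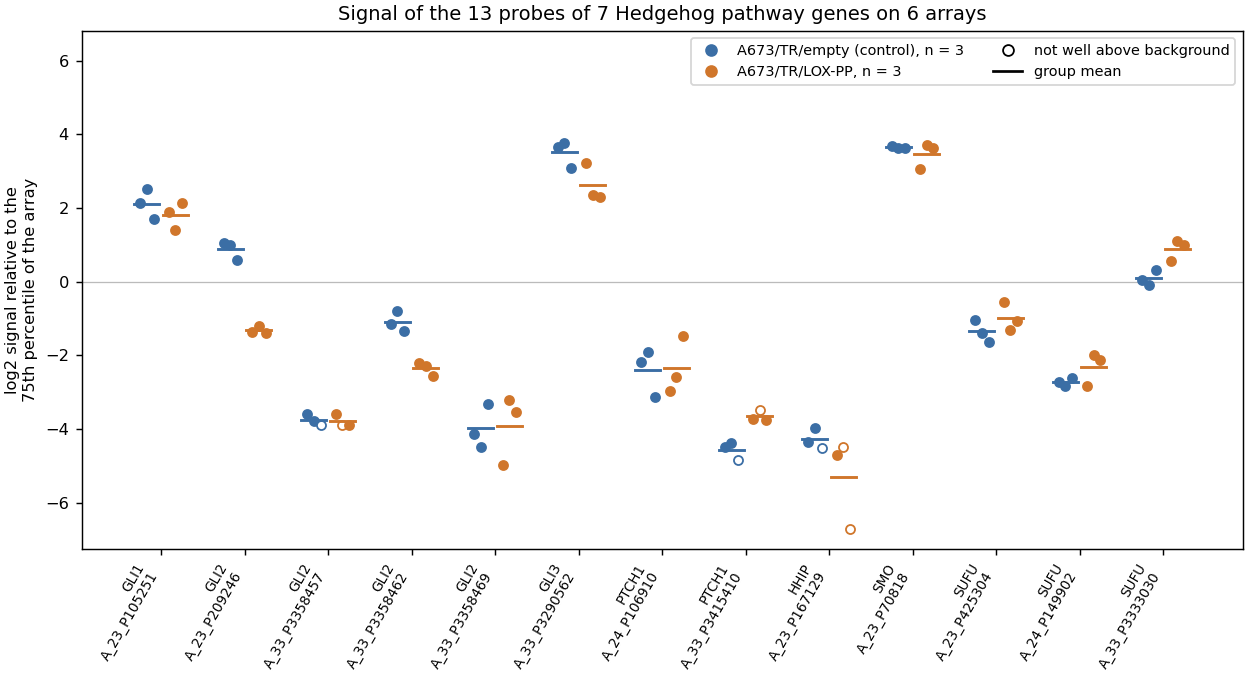
Signal of each of the 13 probes on each array, in log2 over the 75th percentile of that array, with 3 A673/TR/empty (control) and 3 A673/TR/LOX-PP arrays. Bars are group means and open circles are arrays on which the probe was not well above background. The brightest GLI2 probe lies between 0.59 and 1.05 in the control group and between -1.39 and -1.20 in the A673/TR/LOX-PP group.

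The brightest of the 4 GLI2 probes (A_23_P209246; chromosome 2) had levels of 1.05, 1.00 and 0.59 in control replicates 1 to 3 and of -1.38, -1.20 and -1.39 in LOX-PP replicates 1 to 3. Every control array was above every LOX-PP array, with a gap of 1.79 between the groups, which exceeded the SD of 0.25 and 0.10 (n = 3 each). The signal fell by 2.33 on the log2 scale (95% confidence interval -2.86 to -1.80, limma, adjusted p = 0.0037), which is 5.03-fold lower (3.48 to 7.26). Of all tested probes, 0.723% had a lower change. This probe passed the test under each of the 14 other processing choices tried, with changes from -2.54 to -2.21 and an adjusted p in limma or the methods' t-test from 0.00176 to 0.0375. Within the slide that held the other 5 arrays the change was -2.34 (limma, adjusted p = 0.0103). In RNA from whole cultures, fewer cells that express GLI2 and less GLI2 RNA per cell cannot be told apart.

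A further GLI2 probe (A_33_P3358462) was at -1.15, -0.81 and -1.34 in the control replicates and at -2.22, -2.28 and -2.55 in the LOX-PP replicates. Again the groups did not overlap, with a gap of 0.885. It fell by 1.38 on the log2 scale (95% confidence interval -1.94 to -0.82, limma, adjusted p = 0.0299). The call was lost when any array but LOX-PP replicate 1 was left out. The adjusted p was 0.154, 0.144 and 0.0526 without control replicate 1, 2 or 3, and 0.0759 and 0.0788 without LOX-PP replicate 2 or 3, with changes from -1.57 to -1.17 throughout. It was also lost with no filter on dim probes (0.117), in a replicate block (0.0748) and in the methods' t-test (0.0705).

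The other two GLI2 probes were dim and did not pass. A_33_P3358457 was at -3.61, -3.78 and -3.90 in the control replicates and at -3.59, -3.90 and -3.89 in the LOX-PP replicates, and was well above background on 2 of 3 arrays in each group. A_33_P3358469 was at -4.15, -4.50 and -3.32 in the control replicates and at -4.98, -3.21 and -3.55 in the LOX-PP replicates. Its highest levels were on LOX-PP replicate 2 and control replicate 3, the arrays with the highest negative control signal, and the part of that background in the result was not tested. The changes were -0.16 (95% confidence interval -0.66 to 0.35) and -0.05 (-1.30 to 1.19), and their intervals do not contain the change of the brightest probe. All 4 probes carry the same GLI2 accession, and the cause of the disagreement was not tested.

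GLI1, the activator among the GLI proteins and a gene known to be activated by EWS/FLI1, was at 2.12, 2.53 and 1.70 in the control replicates and at 1.89, 1.41 and 2.14 in the LOX-PP replicates (probe A_23_P105251; chromosome 12). The groups overlapped, as LOX-PP replicates 1 and 3 were above control replicate 3. The means were 2.12 ± 0.41 and 1.81 ± 0.37 (SD, n = 3 each), the change was -0.43 (95% confidence interval -1.16 to 0.30), and it did not pass (limma, adjusted p = 0.622). Under the 14 alternatives the change ranged from -0.70 to -0.15, never past the threshold.

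GLI3, which is processed to a repressor in the absence of ligand, was well above background on all arrays (probe A_33_P3290562; chromosome 7). It was at 3.66, 3.78 and 3.10 in the control replicates and at 3.22, 2.36 and 2.29 in the LOX-PP replicates. The groups overlapped through LOX-PP replicate 1, which was above control replicate 3. The change was -1.01 (95% confidence interval -1.81 to -0.22), with an unadjusted p of 0.0338 in limma that did not hold after adjustment (adjusted p = 0.190). Under the 14 alternatives the change ranged from -1.35 to -0.74, never past the threshold. The lowest adjusted p (0.0585, limma) came without LOX-PP replicate 1, the array on a slide of its own, with a change of -1.35. The highest (0.503, limma) came without control replicate 2, with a change of -0.82.

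**Figure D2:**
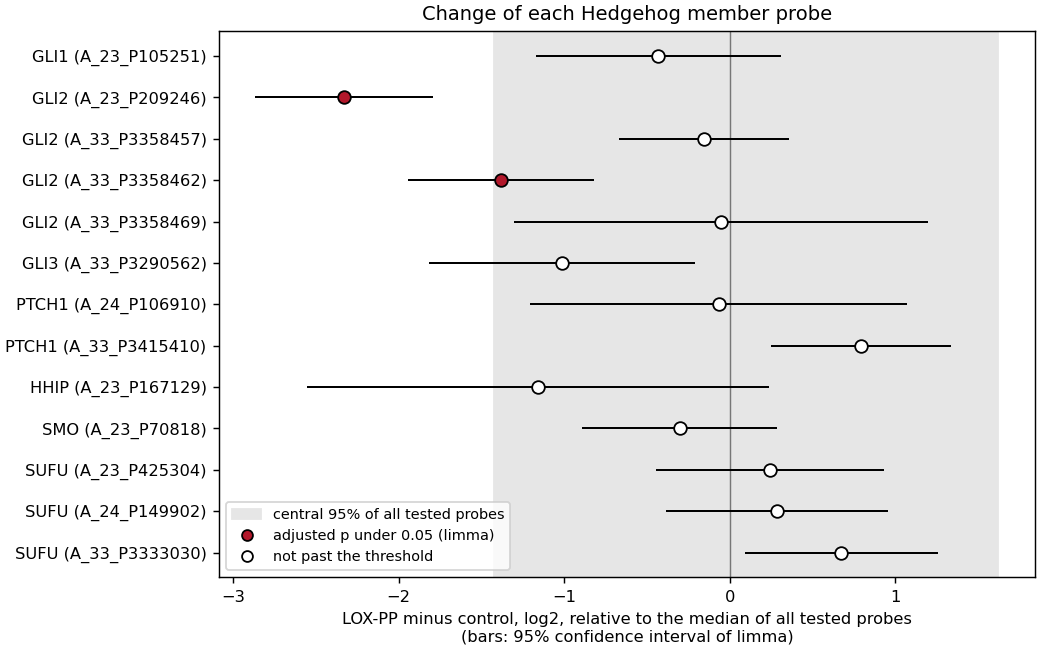
Change of each of the 13 probes, LOX-PP minus control in log2 relative to the median of all tested probes, with the 95% confidence interval of limma as a bar. The grey band is the central 95% of all tested probes, from -1.42 to 1.62. Filled points passed the adjusted threshold, and both are GLI2 probes, at -2.33 and -1.38.

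PTCH1, the receptor and a gene that GLI proteins activate, had 2 probes, neither past the threshold. The brighter one (A_24_P106910; chromosome 9) was at -2.17, -1.92 and -3.13 in the control replicates and at -2.96, -2.60 and -1.48 in the LOX-PP replicates. The groups overlapped over most of their range, and the change of -0.07 had a wide interval (95% confidence interval -1.20 to 1.06, limma, adjusted p = 0.960). The dimmer one (A_33_P3415410) was at -4.48, -4.40 and -4.86 in the control replicates and at -3.72, -3.49 and -3.76 in the LOX-PP replicates. Here every LOX-PP array was higher, by a gap of 0.64, and the change was 0.79 (0.26 to 1.33), short of the threshold (limma, adjusted p = 0.0672). It was well above background on 2 of 3 arrays in each group, and the change was 0.52 after quantile normalization (limma, adjusted p = 0.498).

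HHIP, the decoy receptor, was near the limit of detection (A_23_P167129; chromosome 4), well above background on 2 control arrays and 1 LOX-PP array. It was at -4.36, -3.96 and -4.51 in the control replicates and at -4.72, -4.48 and -6.73 in the LOX-PP replicates. The groups overlapped, and LOX-PP replicate 3 stood apart, below the lowest level (-5.90) that was well above background on that array. The change was -1.16 (95% confidence interval -2.55 to 0.23, limma, adjusted p = 0.361), and -0.45 without that replicate.

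SMO, which passes the signal on once PTCH1 is occupied, was well above background on all arrays (A_23_P70818; chromosome 7). It was at 3.70, 3.62 and 3.64 in the control replicates and at 3.07, 3.72 and 3.64 in the LOX-PP replicates. All values but that of LOX-PP replicate 1 lay close together. The change was -0.30 (95% confidence interval -0.89 to 0.28, limma, adjusted p = 0.728), and -0.14 without that array.

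SUFU, the cytoplasmic inhibitor that binds GLI proteins, had 3 probes (chromosome 10), none past the threshold. The brightest (A_33_P3333030), which carries another transcript accession than the others, was at 0.04, -0.08 and 0.31 in the control replicates and at 0.56, 1.12 and 0.98 in the LOX-PP replicates. The groups did not overlap, by a gap of 0.254, and the change was 0.67 (95% confidence interval 0.10 to 1.25, limma, adjusted p = 0.118). A_23_P425304 was at -1.03, -1.38 and -1.64 in the control replicates and at -0.55, -1.32 and -1.08 in the LOX-PP replicates, a change of 0.24 (-0.44 to 0.93). A_24_P149902 was at -2.72, -2.85 and -2.61 in the control replicates and at -2.84, -1.99 and -2.12 in the LOX-PP replicates, a change of 0.28 (-0.38 to 0.95). On both of these probes the groups overlapped.

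The genes whose pattern over the 6 arrays was most like that of GLI1 were HIPK2, HELZ and CCDC34, with root mean square differences of 0.0847, 0.0987 and 0.101 after centring each probe on its own mean, among 18744 named probes whose median difference was 0.491. For the brighter PTCH1 probe they were CASP1 (0.215), TP53INP2 (0.265) and USP19 (0.267), with a median of 0.662. This is a description over 6 arrays that share their scaling.

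Outside the 7 genes, a list of 59 other Hedgehog pathway genes was read on the brightest probe of each. Of these, 53 were tested and 5 passed, 4 higher and 1 lower, where 3.7% and 3.37% of all genes passed in these directions. A gene that is dim in 1 group can be tested only if it is bright enough in the other, so these counts depend on the filter. Of the 53, 47 were well above background on all 6 arrays, and 2 of these passed (CDON, lower, and NKX6-1, higher), where 5.93% of such genes did. Their median change was -0.17, against -0.13 over all such genes, and 30 of the 47 were below the median of all probes, as were 59.6% of all such genes.

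Among 6 genes for the ligands and their release, 4 were tested and none passed in limma or the methods' t-test, where 7.07% of all genes passed in limma. In limma 1 had an unadjusted p under 0.05, where 21.3% of all tested probes did (range of changes -0.87 to 0.12). SHH, the ligand most used in development, was at -3.58, -3.78 and -1.99 in the control replicates and at -3.56, -1.70 and -3.34 in the LOX-PP replicates, a change of 0.12 (95% confidence interval -1.41 to 1.65). Its highest values were those of control replicate 3 and LOX-PP replicate 2, again the arrays with the highest negative control signal. IHH, well above background on 2 control arrays and 1 LOX-PP array, had a change of -0.00 (-1.56 to 1.55). DHH and SCUBE2, which helps release the ligand, were well above background on 1 and 2 of the 6 arrays and were not tested.

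CDON, a membrane protein that helps PTCH1 bind the ligand, was the 1 called gene of 3 co-receptors, where 7.07% of all genes were called. It was at 0.90, 0.55 and 0.08 in the control replicates and at -1.32, -0.92 and -1.02 in the LOX-PP replicates (A_32_P172141; chromosome 11). The groups did not overlap, by a gap of 0.998. CDON fell by 1.72 on the log2 scale (95% confidence interval -2.38 to -1.07, limma, adjusted p = 0.0236), which is 3.30-fold lower. The adjusted p was 0.127 and 0.119 without control replicate 1 or 2, and 0.0585 and 0.0634 without LOX-PP replicate 2 or 3. It was 0.0939 with no filter, 0.0750 in a replicate block and 0.0849 in the methods' t-test.

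The other co-receptors did not pass. GAS1, a co-receptor anchored in the membrane, had a change of -0.47 (95% confidence interval -1.09 to 0.16). BOC, a relative of CDON, was dim, with a change of 0.40 (-1.19 to 1.98).

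None of 18 regulators of GLI proteins passed on its brightest probe (median change -0.13), and none of 12 genes of the ciliary machinery did (median change -0.26). In limma 5 and 3 of them had an unadjusted p under 0.05, where 21.3% of all tested probes did, and the methods' t-test called none. KIF7, the ciliary kinesin that organises GLI and SUFU at the tip, had a change of -0.08 (95% confidence interval -0.77 to 0.62). CUL3, a scaffold of the ligase that targets GLI proteins for degradation, had probes that disagreed. Its brighter probe (A_33_P3321150) was at 4.79, 4.99 and 4.79 in the control replicates and at 4.93, 4.72 and 5.06 in the LOX-PP replicates, with a change of -0.08 (limma, adjusted p = 0.923). The dimmer one (A_23_P209288) was at -2.04, -1.81 and -2.24 in the control replicates and at -4.53, -5.70 and -4.91 in the LOX-PP replicates, and fell by 3.14 on the log2 scale (limma, adjusted p = 0.00502; 0.0559 in the methods' t-test). After normexp the change was -1.97 (limma, adjusted p = 0.00613). This probe was well above background on all 3 control arrays and 1 LOX-PP array. It thus entered the test through the control group, and its values are a description. It was chosen for mention after its values were seen.

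Of 20 genes known as GLI targets in some tissues, 16 were tested, and 11 of these were well above background on all 6 arrays. Of the 11, NKX6-1 passed and the median change was 0.10. CCND2, SFRP1 and FOXF2 also had an adjusted p under 0.05, but they entered the test through the A673/TR/LOX-PP group, in which they were above background. Entry of this kind favours genes that differ, so their values are a description. CCND2, a cyclin of the G1 phase, was at -5.23, -6.26 and -5.82 in the control replicates and at -2.45, -1.50 and -2.27 in the LOX-PP replicates. It was well above background on 1 control array and all LOX-PP arrays, with a change of 3.57 (95% confidence interval 2.69 to 4.44, limma, adjusted p = 0.00356; 0.0505 in the methods' t-test). After normexp the change was 1.98 (limma, adjusted p = 0.0166).

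SFRP1, a secreted WNT antagonist, was at -5.74, -6.53 and -5.79 in the control replicates and at -3.39, -3.38 and -3.68 in the LOX-PP replicates, with the groups apart by 2.06. It was also well above background on 1 control array and all LOX-PP arrays, with a change of 2.41 (1.74 to 3.07, limma, adjusted p = 0.00496). After normexp the change was 1.27 (limma, adjusted p = 0.0267).

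NKX6-1, a homeodomain factor of the ventral neural tube, was at -2.83, -3.18 and -2.36 in the control replicates and at -0.18, -0.75 and -0.21 in the LOX-PP replicates. All 6 arrays were well above background and the groups did not overlap. It rose by 2.28 (95% confidence interval 1.58 to 2.98, limma, adjusted p = 0.00731), with an adjusted p of 0.0544 without control replicate 1 and 0.0587 in the methods' t-test.

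FOXF2, a forkhead factor of mesenchyme, was below the detection flag in all control replicates, at -7.46, -7.34 and -5.63, and was at -3.75, -3.19 and -4.00 in the LOX-PP replicates. Its mean was -6.81 in the control and -3.65 in the LOX-PP group. Against the lowest measurable level its change was at least 2.64 on the log2 scale. The test of the difference itself gave an adjusted p of 0.0195 in limma. The adjusted p was 0.0952 and 0.0972 without control replicate 1 or 2, and 0.0644 and 0.0530 without LOX-PP replicate 2 or 3. It was also above the threshold after normexp (0.0648, change 1.44), with no filter (0.0731), in a replicate block (0.0568) and in the methods' t-test (0.107).

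The other 12 targets, none past the threshold, had changes from -0.99 to 1.33. Among them were NKX2-2, at 0.86 (95% confidence interval 0.25 to 1.46, limma, adjusted p = 0.0782), which passed after quantile normalization (0.0496), and CCND1, at 0.54 (-0.44 to 1.52).

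**Figure D3:**
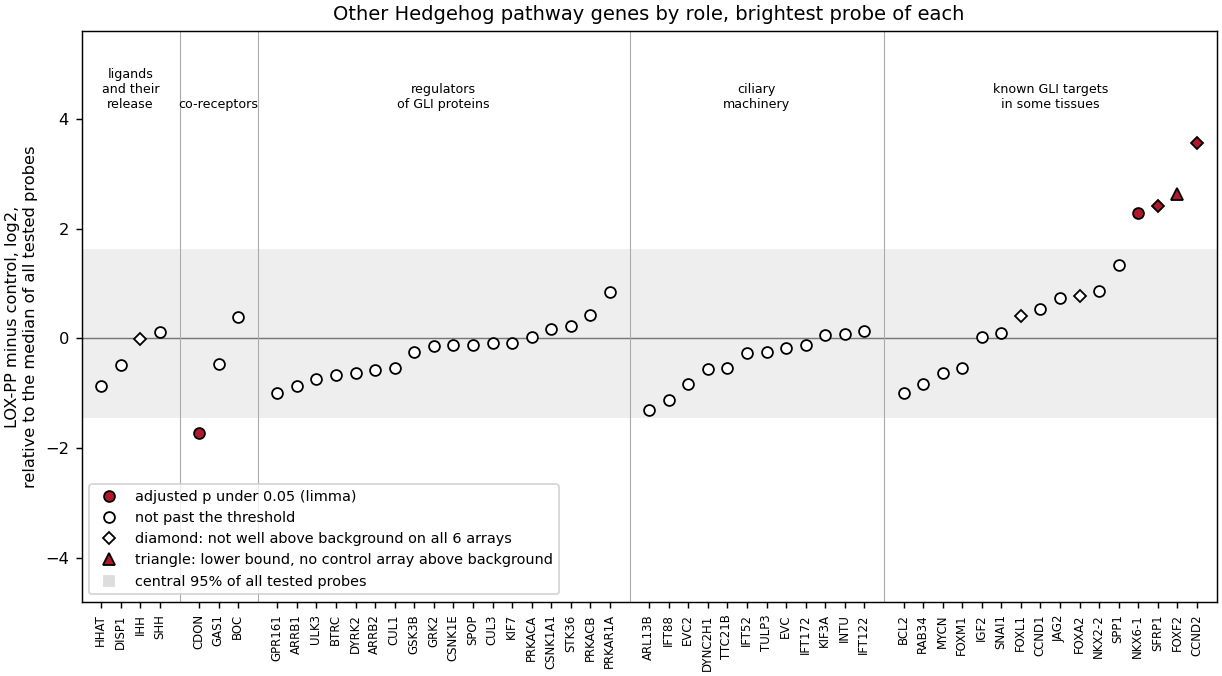
Change of the brightest probe of each of 53 other Hedgehog pathway genes, LOX-PP minus control in log2 relative to the median of all tested probes, ordered within each role. The grey band is the central 95% of all tested probes. Diamonds are genes not well above background on all 6 arrays, and the triangle (FOXF2) is a lower bound of 2.64. Filled marks are CDON at -1.72 and, among the GLI targets, NKX6-1 at 2.28, SFRP1 at 2.41, FOXF2 and CCND2 at 3.57.

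Because GLI1 is an EWS/FLI1-activated gene, 25 such genes were read beside it. The list had 24 tested genes with a median change of -0.09, and 2 passed, both lower, where 7.07% of all genes passed in either direction and 3.37% as lower. CCK, a peptide hormone, was at 2.60, 3.21 and 2.61 in the control replicates and at 0.31, 0.80 and -0.30 in the LOX-PP replicates, and fell by 2.67 on the log2 scale (limma, adjusted p = 0.0100; 0.0544 and 0.0569 without control replicate 1 or 2, and 0.0708 in the methods' t-test). TERT, the catalytic part of telomerase, fell by 1.47 (limma, adjusted p = 0.0264). Its adjusted p was 0.124, 0.131 and 0.0580 without control replicate 1, 2 or 3, 0.0728 without LOX-PP replicate 3, 0.105 with no filter, 0.0582 in a replicate block and 0.0707 in the methods' t-test.

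NR0B1 and STEAP1, which mark Ewing cells, had changes of -0.05 (95% confidence interval -0.64 to 0.53) and 0.31 (-0.18 to 0.80). FLI1, whose 3' part is in the fusion and which was named after its values were seen, was at 3.03, 3.30 and 3.00 in the control replicates and at 2.80, 2.80 and 3.08 in the LOX-PP replicates, with a change of -0.34 (-0.85 to 0.17, limma, adjusted p = 0.619). None of NR0B1, STEAP1, FLI1 and GLI1 passed, and the differences between them were not tested. The change of GLI1 was -0.43, and the 24 tested EWS/FLI1-activated genes had changes from -2.67 to 0.86 with a median of -0.09.

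The 10 markers of Ewing sarcoma were well above background on all 6 arrays. Their summed signal, in multiples of the 75th percentile, was 176 to 197 in control cells and 206 to 243 in A673/TR/LOX-PP cells. None of the 10 passed in limma or the methods' t-test (1 and 2 at an unadjusted p under 0.05). Over all genes 7.07% passed in limma, and 21.3% of all tested probes had an unadjusted p under 0.05 in limma. Of 6 fibroblast markers, 5 were well above background on all arrays, with sums of 46.8 to 50.4 and of 41.9 to 65.7, and all but 1 of the 6 were below the median of all probes, with a median change of -0.66. LUM passed, with a change of -2.42 (limma, adjusted p = 0.0191) and of -1.31 after normexp (0.0463), but was well above background on 2 control arrays and 1 LOX-PP array. COL3A1 had a change of -1.49 (limma, adjusted p = 0.0793), and COL1A1 went the other way, with 0.53 (limma, adjusted p = 0.175). LUM, COL3A1 and COL1A1 were the 3 of the 6 with an unadjusted p under 0.05 in limma. The call of LUM was lost under 8 of its 13 alternatives, among them without control replicate 1 or 2 (0.0885 and 0.101) and without LOX-PP replicate 2 or 3 (0.0628 and 0.0521). The epithelial markers CDH1 and KRT5 were not well above background on any array, and the sums of epithelial, blood cell and endothelial markers were at most 1.15 on every array with no call in limma. KRT19, an epithelial keratin, had a change of -1.01 that missed the threshold in limma (adjusted p = 0.0519) but passed in the methods' t-test. The part of these cell type markers in the Hedgehog results was not tested.

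The genes beside GLI2 and CDON on their chromosomes were also read, chosen after the values of both were seen. Over all genes 7.07% passed in limma, and 21.3% of all tested probes had an unadjusted p under 0.05 in limma, so counts among 10 neighbours say little. Of the 5 nearest genes with a tested probe on each side of GLI2, 0 of 10 passed in limma or the methods' t-test (3 at an unadjusted p under 0.05 in each). Their changes ran from -1.06 for NIFK to 0.68 with a median of -0.05. On chromosome 2 the median change was -0.23 over 1079 genes, and 1.48% of them had a lower change than GLI2. Of the 10 neighbours of CDON none passed either (2 at an unadjusted p under 0.05 in limma), but 9 were below the median of all probes, as were 56.5% of all genes, with a median of -0.62 where chromosome 11 had -0.27 over 1003 genes.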

How the data were processed

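RNA of 3 A673/TR/empty and 3 A673/TR/LOX-PP cultures was measured on 1-colour Agilent arrays (SurePrint G3). The authors deposited spot intensity from Feature Extraction (version 10.7 per the labels), corrected for background by that software, and a table of log2 values. These log2 values matched the deposited intensity after log2, minus the 75th percentile of each array and the median of each probe, within 0.02 for 50537 of 50599 probes. Control and outlier spots (213 to 353 per array) were left out, log2 intensity was averaged per probe, and the 75th percentile was subtracted. The 32647 probes with the flag for signal well above background on 3 or more of 6 arrays were tested with limma 3.58.1 in R 4.3.3, with no covariate and Benjamini-Hochberg adjustment at 0.05; the script was tested on simulated data. Names came from a RefSeq table (28174 probes) of a later assembly than that of the array design, so no probe coordinates are given. Genes were read on the brightest probe, members on all.

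Named are all members, called genes of each list (at most 6) and defining members of each role. One further pathway gene is not reported here. Members and lists were chosen with earlier results of these data known. Whether cultures were independent rests on the study's text; p-values measure the spread of 3 arrays per group. Alternatives were 4 other scalings or background corrections, 2 filters, the slide or the replicate number as a block, the methods' t-test and leaving out each array.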

Additional observations from a re-analysis of the deposited data

How the results depend on the processing

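Over 13 Hedgehog probes and up to 14 alternatives each (the slide as a block is the same fit as leaving out LOX-PP replicate 1 and was counted once), 161 of 179 values kept their direction and their side of the threshold, 8 lost the call, all of 1 GLI2 probe (A_33_P3358462), and 10 turned direction on probes that had not passed. The called member probes, all of GLI2, numbered 1 with no filter, 1 in the methods' t-test and from 1 to 2 when 1 array was left out. All probes called numbered 516 with no filter, 566 in the t-test and from 407 to 2062 when 1 array was left out (407 without control replicate 1, 444 without control replicate 2, 892 without LOX-PP replicate 2 and 1037 without LOX-PP replicate 3). Of the other pathway genes 3 passed with the filter on all 6 arrays, 3 with no filter, 1 in the t-test and from 2 to 6 without 1 array. Of the EWS/FLI1-activated genes 1 passed with no filter, 0 in the t-test and from 0 to 2 without 1 array. At an unadjusted p under 0.05 there were 6 of 24 in the t-test and 4 in limma, where 21.3% of all tested probes were in limma.

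Whether the replicate numbers pair the samples is not known. Deviations of same-numbered arrays from their group means correlated at 0.267, -0.390 and 0.227. Those of control replicate 3 and LOX-PP replicate 2 correlated at 0.390. Such correlations cannot decide on a pairing, because the deviations also hold differences between arrays. With the replicate block 860 probes passed, among them 1 Hedgehog member probe, 3 pathway genes and 1 EWS/FLI1-activated gene.

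Direction turned as follows, none with a call. After normexp GLI2 A_33_P3358457 was at 0.048, GLI2 A_33_P3358469 at 0.14 and IHH at 0.33. With the filter on all 6 arrays GLI2 A_33_P3358469 was at 0.0025 and NR0B1 at 0.0032. With no filter SHH was at -0.055. After quantile normalization CUL3 A_33_P3321150 was at 0.012. With the slide as a block GLI2 A_33_P3358469 was at 0.44, PTCH1 A_24_P106910 at 0.20, SUFU A_23_P425304 at -0.0063, KIF7 at 0.16 and NR0B1 at 0.0073. Leaving out 1 array gave ranges of -0.33 to 0.44 for GLI2 A_33_P3358469, -0.50 to 0.24 for PTCH1 A_24_P106910, -0.0063 to 0.49 for SUFU A_23_P425304, -0.38 to 0.62 for SHH, -0.67 to 0.48 for IHH, -0.31 to 0.16 for KIF7, -0.21 to 0.081 for NR0B1 and -0.18 to 0.091 for CUL3 A_33_P3321150. The cause was not tested. The normexp alternative used the median spot signal, as the files give no mean. With 3 arrays per group, signal over background limits GLI2 A_33_P3358457, PTCH1 A_33_P3415410, HHIP, IHH and LUM. It also limits the control levels of CCND2, SFRP1 and FOXF2 and the LOX-PP levels of CUL3 A_23_P209288.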
